A study of Mus musculus with 12 samples.

Results

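The extracellular matrix is turned over by zinc-dependent proteases and by the inhibitors that hold them in check. Here 36 genes of these families, 4 Timp, 17 Mmp and 15 Adamts genes, were followed in WAT, muscle and liver of mice treated with UAG. The members were taken by name: the probe sets of the array that were annotated to a single gene whose symbol starts with Mmp, Timp or Adamts and goes on with a digit. They were 69 of 45037 probe sets and 36 of the 18193 genes named. A further gene of these families is not reported here, and the set was chosen with earlier results of these data known. A probe set is a group of short probes that reads 1 transcript, and the Timp, Mmp and Adamts genes had 13, 28 and 28 of them.

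The RNA came from 12 week old female C57bl/6 mice that lack GHSR, the receptor for acylated ghrelin, so that the saline mice carry the deletion too and no mouse with the receptor was compared. The mice were killed 6 h after an intraperitoneal injection of saline or of UAG, ghrelin without its acyl group, at 20 nmol/kg. RNA of 3 tissues, the gonadal WAT, the M. vastus lateralis and the liver, was hybridized to 12 arrays, 2 for each of the 6 groups of tissue and treatment. The labels number the arrays 1 and 2 in each group but do not say whether a number is the same mouse in each tissue, and the methods can be read as the same mice giving all 3 tissues. The tests between tissues treated all arrays as independent samples, and the spread behind each p-value is that between these samples and may be technical. Values are intensities, the deposited log2 values returned to the linear scale, with values below 30 set to 30. A gene is shown by its brightest probe set over the 12 arrays. Intensities were compared only within a probe set, since the brightness of different probe sets depends on the probes. In whole tissue, fewer cells of a type and less RNA per cell cannot be told apart.

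MMPs are secreted or membrane-bound enzymes, made as inactive proenzymes, that cut collagens, gelatins, laminins and proteoglycans. ADAMTS proteases carry thrombospondin repeats and act mainly on proteoglycans such as aggrecan and versican, on procollagens and on fibrillin-rich fibrils. The TIMPs bind the active site of these enzymes, and TIMP3 is the member that also blocks ADAMTS proteases and ADAM17. In fat, remodelling of the matrix accompanies the growth of adipocytes, and TIMP4 is known for its restricted presence in heart, muscle and adipose tissue.

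The only probe set for Ghsr was below 30 on all 12 arrays, at 26.2 or less, and whether it reads the deleted part is not known here. The hepatocyte and skeletal muscle markers followed the labels, while fat markers were high in muscle too. The summed intensity of 5 hepatocyte markers was 55963 to 79131 in liver and at most 339 elsewhere, and that of 6 skeletal muscle markers was 84822 to 88328 in muscle, at most 3442 in WAT and at most 303 in liver. The sum of 4 adipocyte markers was 39644 to 46523 in WAT and 24511 to 37172 in muscle, but at most 436 in liver. Among them Adipoq, which encodes the adipocyte hormone adiponectin, read 7674 to 11936 on the muscle arrays and was below 30 on all liver arrays. Several arrays stood apart in markers of other cells. WAT saline replicate 2 had a smooth muscle sum of 34705 against 6162, 6648 and 7112 on the other WAT arrays, and WAT saline replicate 1 a brown fat sum of 20010 against 1989 to 4053. On the muscle arrays the brown fat sum was 14770 to 22344, and the brown fat marker Ucp1 read 1043 to 3713. Muscle UAG replicate 2 had a neutrophil sum of 6749 against 251, 443 and 261, and muscle saline replicate 2 a sum of mesothelium and epithelium markers of 3012 against 243, 648 and 830.

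The sequences before the start sites are shown for the 4 Timp genes, because Timp4 and its relatives are described first below, and for Mmp3, the only brighter member of an Mmp group on chromosome 9 whose other genes were dim in all tissues. Each is the 250 bases before the RefSeq start of the gene in GRCm38.p6, read on the strand of the gene: Timp1 at chrX:20869916-20870165 (plus), Timp2 at chr11:118355412-118355661 (minus), Timp3 at chr10:86300162-86300411 (plus), Timp4 at chr6:115252206-115252455 (minus) and Mmp3 at chr9:7445572-7445821 (plus). In the annotation, Timp1, Timp3 and Timp4 lie within the synapsin genes Syn1, Syn3 and Syn2. Capitals mark matches, on either strand, to TATAAA (the TATA box), TGANTCA (the AP-1 site), GGGCGG (the GC box) and CAGCTG (an E-box of muscle bHLH factors), none of which holds another. The E-box was added after the Timp4 sequence had been read.
Timp1: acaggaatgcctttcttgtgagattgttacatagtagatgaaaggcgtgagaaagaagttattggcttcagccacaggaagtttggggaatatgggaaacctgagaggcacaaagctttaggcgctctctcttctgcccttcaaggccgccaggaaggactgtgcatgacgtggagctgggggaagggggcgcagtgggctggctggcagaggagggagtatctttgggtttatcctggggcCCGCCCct
Timp2: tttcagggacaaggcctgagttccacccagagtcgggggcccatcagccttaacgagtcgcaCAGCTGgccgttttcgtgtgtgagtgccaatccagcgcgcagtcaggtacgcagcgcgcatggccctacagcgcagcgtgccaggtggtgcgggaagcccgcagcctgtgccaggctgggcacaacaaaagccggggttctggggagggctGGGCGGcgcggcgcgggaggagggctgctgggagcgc
Timp3: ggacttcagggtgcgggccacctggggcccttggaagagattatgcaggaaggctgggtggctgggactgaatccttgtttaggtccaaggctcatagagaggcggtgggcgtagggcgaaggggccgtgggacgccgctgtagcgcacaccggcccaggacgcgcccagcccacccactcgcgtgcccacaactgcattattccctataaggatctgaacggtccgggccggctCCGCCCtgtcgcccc
Timp4: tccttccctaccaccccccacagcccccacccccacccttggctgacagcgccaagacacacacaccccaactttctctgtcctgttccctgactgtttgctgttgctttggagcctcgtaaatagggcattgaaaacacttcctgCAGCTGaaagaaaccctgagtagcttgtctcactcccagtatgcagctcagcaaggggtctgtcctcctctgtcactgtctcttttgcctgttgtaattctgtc
Mmp3: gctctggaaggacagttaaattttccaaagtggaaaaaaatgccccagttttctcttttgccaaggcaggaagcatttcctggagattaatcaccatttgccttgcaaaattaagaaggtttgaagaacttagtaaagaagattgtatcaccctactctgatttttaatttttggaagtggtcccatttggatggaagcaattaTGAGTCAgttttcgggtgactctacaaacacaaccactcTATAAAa

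In these windows Timp1, Timp2 and Timp3 held the GC box, which 32.7% of the 32851 promoters of the RefSeq table hold. The Timp4 window held no GC box, and its only match was CAGCTG, which begins 104 bases before the start. Timp2 also held CAGCTG, at 188 bases, and 13% of all promoters do. The Mmp3 window held an AP-1 site that begins 46 bases and a TATA box that begins 7 bases before the start. All 8 chromosome 9 Mmp members, Mmp1a, Mmp1b, Mmp3, Mmp7, Mmp10, Mmp12, Mmp13 and Mmp20, held TGANTCA, against 6.75% of all promoters, and 7 of the 8 held TATAAA, against 12.4%. Of the 36 members, 22 had a promoter in the table, and no other member among them held TGANTCA. A member was counted where any of its promoters matched, while the percentages are of single promoters. In TGANTCA, N stands for any base. These matches describe the letters only.

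Of the 36 genes, 24 had a mean intensity of at least 30 over the 4 arrays of 1 or more tissues and were tested there, 13 of them in all 3 tissues. The 12 whose brightest probe set was tested in none were Mmp1a, Mmp1b, Mmp7, Mmp10, Mmp12, Mmp13, Mmp20, Adamts4, Adamts6, Adamts18, Adamts19 and Adamts20, among them interstitial collagenases, the macrophage elastase and an aggrecanase. The highest array values of these probe sets lay between 15.5 (Mmp20) and 49.5 (Adamts4), and 8 of the 12 had no array at 30 or above. The dimmer probe set for Adamts6 was tested in WAT, where it read 33.2 and 49.2 with saline and was below 30 on both UAG arrays, and limma did not call it (adjusted p = 0.801). On chromosome 9, 7 of the 8 Mmp members were below 100 on every array, and Mmp3, the stromelysin that cuts proteoglycans and activates other proMMPs, was the exception.

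Among the inhibitors, Timp4 was higher after UAG in WAT and in muscle. In WAT its intensity was 773 and 444 with saline and 1465 and 1741 with UAG. In muscle it was 361 and 463 with saline and 721 and 716 with UAG. All UAG arrays were above all saline arrays in both tissues, and in liver the 4 arrays were below 30. The ratio of the means was 2.63 in WAT and 1.74 in muscle, and the log2 differences were 1.45 ± 0.28 (SE) and 0.81 ± 0.20. Neither passed limma after adjustment over all probe sets (adjusted p = 0.566 in WAT). A second Timp4 probe set read 444 and 265 with saline against 697 and 922 with UAG in WAT (ratio 2.29), and 300 and 334 against 511 and 422 in muscle (ratio 1.47).

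**Figure D1:**
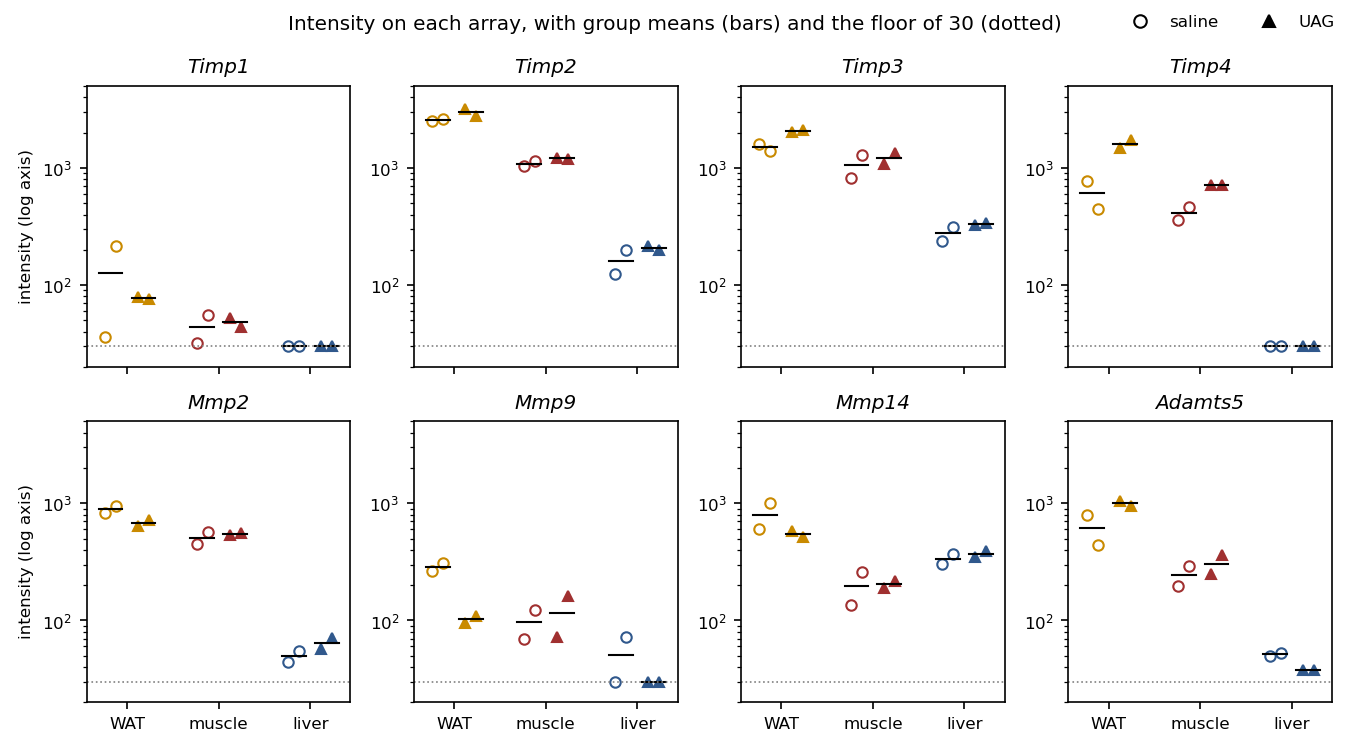
Intensity of 8 members on each of the 12 arrays (log axis), with open circles for saline, filled triangles for UAG, bars for the mean of the 2 arrays of a group and a dotted line at the floor of 30. Timp4 lies at the floor in liver and is higher with UAG in WAT and muscle, and the UAG arrays of Mmp9 in WAT (95.7 and 110) lie below the saline arrays (264 and 308).

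The difference of Timp4 in WAT was 1.05 on the log2 scale without saline replicate 2, the array with the smooth muscle markers, and 1.85 without saline replicate 1, the array with the brown fat markers. Adipocyte marker sums differed little between the WAT groups, with 43158 and 39644 for saline and 42835 and 46523 for UAG, and in muscle they were 24511 and 37172 against 27367 and 31475. The adipocyte marker Lep, which encodes leptin, differed in the same direction as Timp4 in both tissues. It read 1495 and 392 against 2762 and 3283 in WAT, and 176 and 172 against 366 and 626 in muscle. On the log2 scale Lep was higher by 1.98 and 1.46, respectively. The other adipocyte markers, Adipoq, Fabp4 and Retn, did not share a change of that size. With UAG they moved by 0.067, 0.012 and 0.060 in WAT. Their changes on the muscle arrays were 0.023, -0.028 and -0.31. The part of adipocyte RNA in the Timp4 values of muscle was not tested.

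Timp2, which inhibits MMPs and also takes part in the activation of proMMP2 by MT1-MMP, was the next inhibitor with UAG arrays above saline arrays in both tissues. Its intensity in WAT was 2522 and 2617 with saline and 3213 and 2792 with UAG (ratio 1.17), and in muscle 1029 and 1145 against 1215 and 1192 (ratio 1.11). In liver the groups overlapped, at 124 and 200 with saline against 217 and 199 with UAG. A dimmer probe set read 38.5 and 62.2 against 94.9 and 82.8 in liver (ratio 1.77), and another had a ratio of 0.946. The probe sets of Timp2 differed in direction in WAT. Of the dimmer ones, 2 read 1122 and 1024 against 964 and 929, and 878 and 872 against 707 and 756, both lower with UAG.

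Timp3, the matrix-bound inhibitor, read 1607 and 1408 with saline and 2018 and 2106 with UAG in WAT, a ratio of 1.37 and a log2 difference of 0.45 ± 0.15 with groups that did not overlap. In liver it read 240 and 316 against 324 and 336, also apart, with a ratio of 1.19. In muscle the groups overlapped, at 813 and 1291 against 1085 and 1346. A second bright probe set of Timp3 was also higher on both UAG arrays in WAT (1194 and 1152 against 1431 and 1751), while 2 dimmer ones were at ratios of 0.945 and 0.803.

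Timp1, the inducible inhibitor, had no common direction. In WAT it read 36.1 and 216 with saline and 79.4 and 75.6 with UAG, so that the saline arrays lay on both sides of the UAG arrays. The array at 216 was saline replicate 2. Timp1 was dim in muscle, at 31.9 and 55.9 against 52.6 and 44.3, and all liver arrays were below 30.

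The gelatinases Mmp2 and Mmp9 cut denatured collagen and basement membrane collagen. In WAT Mmp9 read 264 and 308 with saline and 95.7 and 110 with UAG, the largest difference among the members tested there. The ratio was 0.360, and the log2 difference was -1.47 ± 0.19. It had the smallest limma adjusted p of the members in any UAG comparison, 0.499, which is no call. The other probe set of Mmp9 read 205 and 197 against 114 and 161, with a ratio of 0.682, so that its direction was the same and its size was under 2-fold.

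In muscle Mmp9 was 69.5 and 123 with saline and 72.3 and 161 with UAG, and the groups overlapped. In liver it was above 30 on 1 array, at 72.3 on saline replicate 2. Neutrophils are a known store of MMP9. Of 5 neutrophil markers found, 3 could be tested in WAT and all 3 were at a ratio under 0.5. The marker sums per WAT array were 189 and 752 with saline and 217 and 169 with UAG, and their part in the WAT values of Mmp9 was not tested. Without saline replicate 2 the log2 difference of Mmp9 was -1.36. The 6 macrophage markers summed to 9015 and 8957 against 8921 and 9164. In muscle the array with the neutrophil sum of 6749, UAG replicate 2, also had the highest Mmp9 value of the 4 muscle arrays, 161. The log2 difference of Mmp9 in muscle was -0.36 without that array. The other Mmp9 probe set was highest in muscle on saline replicate 2. It read 37.1 and 68.9 with saline against a value below 30 and 57.2 with UAG (ratio 0.822).

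Mmp2 read 826 and 955 with saline and 637 and 715 with UAG in WAT, a ratio of 0.759 with groups apart, and its other probe set had a ratio of 0.778. In muscle the ratio was 1.08 with groups that overlapped. In liver, where it was dim, the values were 44.6 and 55.1 against 57.7 and 70.9, higher with UAG on both arrays. Its other probe set read a value below 30 and 42.3 against 79.5 and 63.1 in liver. The ratio was 1.97, and limma did not call it.

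Among the membrane-type MMPs, Mmp14, which encodes MT1-MMP, the activator of proMMP2, was lower with UAG in WAT. It read 598 and 999 with saline against 580 and 515 with UAG, a ratio of 0.686, and its 3 probe sets had log2 differences of -0.50, -0.63 and -0.52. The gap between the groups was small, and without saline replicate 2 the log2 difference of the brightest probe set was -0.13. In muscle and liver the Mmp14 groups overlapped, with ratios of 1.04 and 1.10.

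Mmp17, which encodes the GPI-anchored MT4-MMP, was at a ratio of 0.496 in WAT, from 42.2 and 137 with saline against 51.9 and 37.0 with UAG. That ratio rested on the value of 137 on saline replicate 2: without this array the log2 difference turned from -0.79 to 0.056. Mmp16 and Mmp24, further membrane-type enzymes, had no group mean of 100, and Mmp24 in liver was lower with UAG (65.9 and 40.4 against 31.4 and a value below 30).

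Of the other MMPs, Mmp19, an MMP of many tissues that cuts basement membrane proteins, was lower on both UAG arrays in WAT (112 and 133 against 104 and 108) and in muscle (47.5 and 70.1 against 39.2 and 40.8). In liver its groups overlapped, at 264 and 150 against 172 and 221. Mmp11, the stromelysin that leaves the cell in active form, had a ratio of 1.07 in WAT. Mmp23, a transmembrane MMP, had a ratio of 0.928 there, and the groups of both genes overlapped. Mmp3 was uneven in muscle, at 48.6 and 261 with saline against 122 and 170 with UAG.

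Among the ADAMTS proteases, Adamts5, the main aggrecanase of mouse cartilage, was higher with UAG in WAT. It read 790 and 443 with saline and 1055 and 953 with UAG, a ratio of 1.63 and a log2 difference of 0.76 ± 0.28. Its other tested probe sets there had ratios of 1.58 and 1.39, and all 3 had groups that did not overlap. In muscle the ratio was 1.25 with overlap. In liver its probe sets went apart, the brightest being lower on both UAG arrays (38.1 and 37.5, ratio 0.737) and the next being higher (37.0 and 38.3 against 55.5 and 61.7), both close to the floor.

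Adamts9, a protease of versican and aggrecan, was higher on both UAG arrays in WAT (181 and 286 against 336 and 331, ratio 1.43), as was Adamts12, which can cut cartilage oligomeric matrix protein (361 and 367 against 439 and 431, ratio 1.19). Adamts9 was lower on both UAG arrays in liver, with a ratio of 0.825. Adamts1, another versican protease, overlapped in all 3 tissues, and in WAT it read 154 and 422 against 447 and 298. Adamts10, linked to fibrillin, read 86.6 and 93.2 against 97.3 and 103 in liver and overlapped in WAT and muscle. Adamts15, with ratios of 1.14, 1.46 and 0.828 in WAT, muscle and liver, overlapped in each.

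Adamts3, a procollagen and VEGF-C processing enzyme, read 40.9 and 136 against 47.0 and 43.7 in WAT, and again the high value was saline replicate 2. The log2 difference was -0.72, and 0.15 without that array, an alternative chosen after seeing the data. With the floor of 30 and by the brightest probe sets, Adamts16 had the largest difference of the liver members. It read 90.1 and 51.1 with saline and 40.9 and 30.3 with UAG (ratio 0.505). The dimmer Mmp2 probe set differed slightly more in liver, upward (ratio 1.97). Without the floor, Mmp9 and Mmp24 passed 2-fold in liver. In muscle Adamts16 read 49.0 and 58.0 against 42.3 and a value below 30.

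**Figure D2:**
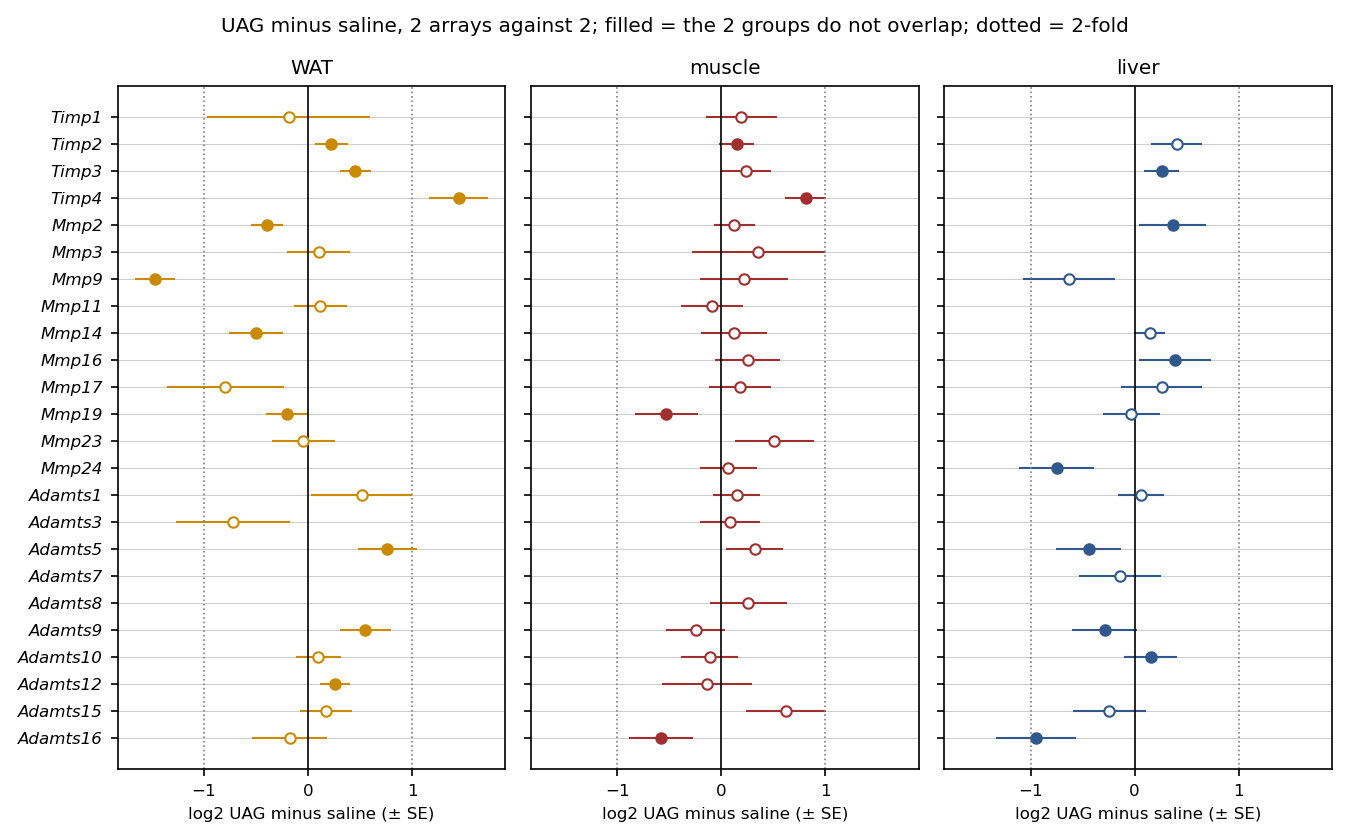
Log2 difference of UAG minus saline for the 24 tested members in each tissue, with SE from limma as bars, filled points where the 2 UAG arrays lie wholly above or below the 2 saline arrays, and dotted lines at 2-fold. Timp4 in WAT (1.45) and Mmp9 in WAT (-1.47) lie outside 2-fold with groups apart, and no muscle or liver member passes 2-fold.

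Counted by a 2-fold ratio of the means, 3 of the 20 members tested in WAT passed, Timp4 upward and Mmp9 and Mmp17 downward. This was 15% of the members, against 2.46% of all genes tested in WAT, of which 0.509% passed upward and 1.95% downward. With the further condition that the groups did not overlap, 2 of 20 remained, Timp4 and Mmp9, against 1.54% of all genes. UAG and saline arrays did not overlap for 10 of 20 members, 6 higher and 4 lower, against 38.1% of all genes, 24% higher and 14.2% lower. The 3 brighter inhibitors and Adamts5, Adamts9 and Adamts12 made up the 6, and Mmp2, Mmp9, Mmp14 and Mmp19 made up the 4. limma called none of the 20 members and 0% of all genes, and 5 members, Timp3, Timp4, Mmp2, Mmp9 and Adamts5, were at an unadjusted p under 0.05, against 7.12% of all genes. With 2 arrays against 2, an exact permutation test of a single gene cannot give a two-sided p below 0.333. The log2 difference was above 0 for 11 of the 20 members, against 54.4% of all genes, with a median of 0.099 against 0.029.

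The 2-fold count in WAT was 6 without saline replicate 1, with Timp1, Adamts3 and Adamts5 added to the 3, and 4 without saline replicate 2, where Timp1 and Adamts1 stood in place of Mmp17. Timp4 and Mmp9 were in each of these sets.

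In muscle, none of the 23 tested members passed 2-fold, against 0.639% of all genes, and none passed limma, against 0%. The groups did not overlap for 4 members, Timp2 and Timp4 higher and Adamts16 and Mmp19 lower, against 21.6% of all genes, 11.8% higher and 9.77% lower. Timp4 was the only one at an unadjusted p under 0.05 (background 1.85%). The log2 difference was above 0 for 17 of 23 members, 73.9%, against 52.3% of all genes, and the median was 0.15 against 0.010. Fibroblast markers were above 0 for 5 of 6, with sums of 8565 and 10898 with saline against 10506 and 12083 with UAG. The macrophage and smooth muscle markers were above 0 for 6 of 6 each, with medians of 0.35 and 0.15. The neutrophil and tendon and cartilage markers were above 0 for 5 of 5 each, with medians of 2.02 and 0.80. The neutrophil sums were 251 and 443 with saline against 261 and 6749 with UAG, so that only UAG replicate 2 was high. Mesothelium and epithelium markers were above 0 for 4 of 5, but by the ratio of the means 4 of 5 were 2-fold lower with UAG. Their sums were 243 and 3012 with saline against 648 and 830 with UAG, so the saline arrays lay on both sides. Other lists were not mostly above 0: endothelium and brown fat markers were for 2 of 6 each, with medians of -0.11 and -0.38. Adipocyte markers were for 2 of 4, and skeletal muscle and reproductive tract markers for 3 of 6 each. The part of any of these cells in the members' differences was not tested. Without saline replicate 2, the array with the mesothelium and epithelium markers, 3 members passed 2-fold, Mmp3, Mmp23 and Adamts15.

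In liver, none of the 16 tested members passed 2-fold, against 0.608% of all genes, and none passed limma, against 0%. Groups did not overlap for 8 members, 4 in each direction, against 29.7% of all genes, 15.2% higher and 14.4% lower. Of these, Timp3, Mmp2, Mmp16 and Adamts10 were higher and Mmp24, Adamts5, Adamts9 and Adamts16 lower. Adamts16 alone was at an unadjusted p under 0.05 (background 3.38%). Leaving out a single array gave 2-fold counts of up to 2, from Adamts16, Mmp24 or Mmp9, all within reach of the floor. The log2 difference was above 0 for 8 of the 16, against 51.6% of all genes, with a median of 0.015 against 0.0073.

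Whether the response differed between tissues was tested as the difference of the UAG effects in a fit to all 12 arrays, over 22 members. None of the 3 pairs of tissues gave a member call, against 0.00794% of all genes for WAT against muscle, 0% for WAT against liver and 0% for muscle against liver. At an unadjusted p under 0.05 there were 1, 5 and 2 members, against 3.65%, 4.53% and 2.49% of all genes. The 1 member for WAT against muscle was Mmp9, whose UAG effect was lower in WAT, with a log2 difference between the effects of -1.69 ± 0.64. The smallest adjusted p was that of Timp4 for WAT against liver, 0.649, with a difference of 1.45 ± 0.33, in which liver stood at the floor. Without WAT saline replicate 1, Timp4 was called in that comparison, in a fit where the lone saline array is assumed to vary like the other groups and Timp4 in liver has no spread because all of its arrays are at the floor. A difference between the tissues in the response of Mmp9 or Timp4 was therefore not called in the fit to all arrays.

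The probe sets of a gene read different stretches or forms of its transcript. In WAT, 10 members had 2 or more tested probe sets, and for 7 of them all pointed the same way. The probe sets of Timp2, Timp3 and Mmp23 were split in sign. In muscle 5 of 10 genes were split, Timp2, Mmp9, Mmp14, Mmp19 and Adamts9, and in liver 4 of 8, Timp2, Mmp14, Mmp19 and Adamts5. No gene was split with both directions past 2-fold. Both probe sets of Timp4 and Mmp9, and all 3 of Mmp14 and Adamts5, kept 1 direction in WAT.

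**Figure D3:**
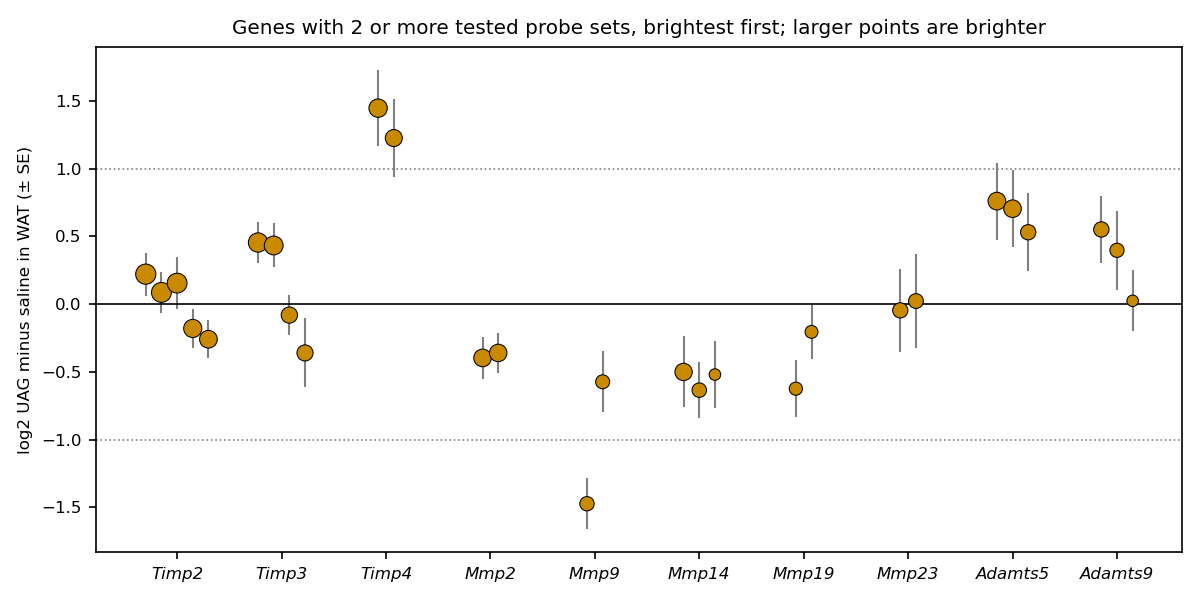
Log2 difference of UAG minus saline in WAT for every tested probe set of the 10 members with 2 or more, with SE from limma, in order of brightness within a gene. The bright probe sets of Timp2 and Timp3 lie above 0 and the dimmer ones below, while both probe sets of Timp4 lie above 1.

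Differences between tissues were called for most members. Of the 22 members in the fit to all arrays, limma called 14 between WAT and muscle, 13 of them higher in WAT, or 59.1%, against 32.9% of all genes called higher in WAT and 23% lower (either way, 63.6% of members against 55.9% of all genes). The exception was Mmp24, which was at the floor in WAT and at 61.4 ± 3.23 (SD, n = 4) in muscle, at least 2.05-fold higher. This rests on its brightest probe set. Before the floor, a dimmer one read 20.3, 16.3, 24.4 and 47.9 in WAT and 18.9, 13.5, 31.1 and 44.1 in muscle. The remaining Mmp24 probe set was below 30 on all arrays. Against liver 17 members were higher in WAT, 77.3%, against 35.6% of all genes, and 1, Mmp19, was lower, against 27.3% (either way, 81.8% against 62.9%). Among the 17, Timp1, Timp4, Mmp3, Mmp11 and Adamts3 were below 30 on all 4 liver arrays. They passed the mean of 30 through the other tissues, so that liver could not be higher for them. The same filter held for all genes. Between muscle and liver 12 were higher in muscle, 54.5%, against 35.2% of all genes, and Mmp14 and Mmp19 were lower, against 31.1% (either way, 63.6% against 66.3%). The number called fell from 14 to 8 for WAT against muscle and for muscle against liver when only the saline arrays were used. The muscle arrays also held high fat markers, and the part of fat in the muscle levels was not tested.

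Timp2, Timp3 and Timp4 were highest in WAT, lower in muscle and lowest in liver. Timp2 was 2786 ± 306 (SD, n = 4) in WAT, 1145 ± 82.7 in muscle and 185 ± 41.6 in liver, 2.43-fold higher in WAT than in muscle and 6.33-fold higher in muscle than in liver. Timp3 was 1785 ± 332, 1134 ± 242 and 304 ± 43.6, with steps of 1.58-fold and 3.69-fold. Timp4 was 1106 ± 600 in WAT and 565 ± 182 in muscle, 1.79-fold apart, and at least 32.3-fold and at least 18.1-fold above liver, where no array reached 30. All of these differences of Timp2, Timp3 and Timp4 passed limma (adjusted p of 0.0040 for Timp3 and 0.0017 for Timp4 between WAT and muscle, and 1.1e-06 or below against liver). The p-values of Timp4 rest on a fit in which its liver values, all set to the floor, had no spread. Timp1 was called only between WAT and liver (at least 2.76-fold), and its WAT value of 102 ± 78.4 held the high saline array.

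The gelatinase Mmp2 was 784 ± 138 in WAT and 529 ± 56.0 in muscle against 57.1 ± 10.8 in liver, 13.7-fold and 9.35-fold higher. Mmp9 was at least 4.58-fold higher in WAT than in liver, where 3 of 4 arrays were below 30, and its difference between WAT and muscle was not called (adjusted p = 0.065). Mmp11 was 129 ± 22.2 in WAT and 35.6 ± 4.70 in muscle, where 1 of 4 arrays was below 30, so at least 3.61-fold apart, and below 30 in liver, and Mmp23 was 275 ± 71.4, 53.3 ± 17.1 and 31.6 ± 3.27, with 1 muscle array and 3 liver arrays set to 30. Mmp3 was 110 ± 26.5 in WAT and 150 ± 89.1 in muscle, which were not called apart, and below 30 in liver.

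Mmp19 and Mmp14 had other orders. Mmp19 was highest in liver, at 202 ± 51.0 against 114 ± 12.9 in WAT and 49.4 ± 14.3 in muscle, 1.73-fold and 4.10-fold higher. Mmp14 was highest in WAT, at 673 ± 220, but liver, at 354 ± 37.3, lay 1.81-fold above muscle, at 200.1 ± 51.5.

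Among the ADAMTS genes, Adamts5 was 810 ± 268 in WAT, 275 ± 69.4 in muscle and 44.5 ± 7.87 in liver, 2.87-fold and 6.09-fold per step. Adamts12 was 399 ± 41.0, 203 ± 92.4 and 30.9 ± 1.66, with steps of 2.11-fold and, since 2 of 4 liver arrays were below 30, at least 6.12-fold. Adamts9 fell from 283 ± 71.9 to 137 ± 27.5 and 58.9 ± 8.64. Adamts1 was 330 ± 134 and 290 ± 43.1 in WAT and muscle, which were not called apart, and 145 ± 16.6 in liver. Adamts10 and Adamts15 were higher in WAT than in either other tissue and did not differ past the threshold between muscle and liver. Adamts16, Mmp16 and Mmp17 were called in none of the 3 comparisons.

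**Figure D4:**
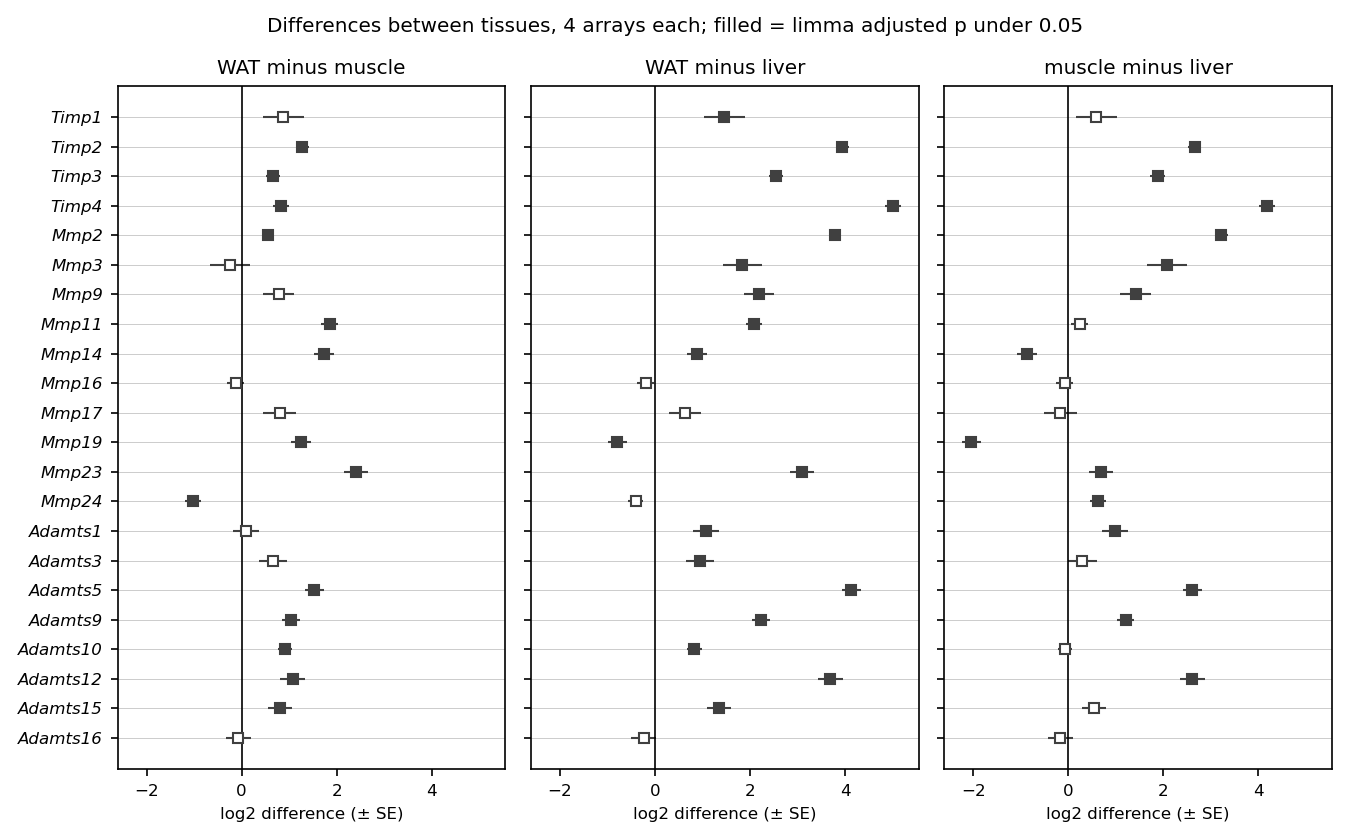
Log2 differences between tissues for the 22 members fitted to all 12 arrays, 4 arrays per tissue, with SE as bars and filled squares at a limma adjusted p under 0.05. Most filled squares lie to the right of 0, with Mmp24 lower in WAT than in muscle, Mmp19 lower in both WAT and muscle than in liver, and Mmp14 lower in muscle than in liver.

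Markers of single arrays moved with several members. In WAT the smooth muscle sums were 6162 and 34705 with saline against 6648 and 7112 with UAG, with all 6 markers present and 5 of 6 at a ratio under 0.5, and the fibroblast sums were 17055 and 29405 against 20333 and 20155. The reproductive tract sums were 1432 and 3736 against 1407 and 1649, with Hoxa13 below 30 on all WAT arrays. Timp1, Mmp17, Adamts3 and Mmp14 each had their highest WAT value on the same array, saline replicate 2, and the substrate Vcan, which encodes versican, read 322 there against 83.7 to 133 on the others. Mmp2, Mmp9, Mmp19 and Mmp23 were also highest there, at 955, 308, 133 and 369. The other probe sets of Mmp9 and Mmp19 were highest on saline replicate 1. They read 205 and 155 there, against 197 and 147 on saline replicate 2. The share of all genes that were highest on saline replicate 2 was not counted. Without saline replicate 2 the log2 differences were 1.10 for Timp1, 0.056 for Mmp17 and -0.13 for Mmp14. The part of smooth muscle or of attached tissue in these values was not tested.

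In muscle the adipocyte sums and the intensities of Mmp2, Mmp3, Mmp14 and Adamts12 ran in the same order over the 4 arrays, a pattern picked out after the values were seen. The share of all genes in that order was not counted. The adipocyte sums were 24511 and 37172 with saline and 27367 and 31475 with UAG. Adamts12 was 120 and 328 against 149 and 218, and Mmp3 was 48.6 and 261 against 122 and 170. Mmp2 was 446 and 569 against 540 and 559, and Mmp14 was 135 and 258 against 191 and 216. For these brightest probe sets saline replicate 2 was highest and saline replicate 1 lowest, as for the adipocyte sum, and the groups overlapped. The mesothelium and epithelium sums, 243 and 3012 with saline and 648 and 830 with UAG, ran in that order too. The other probe sets of Mmp2 and Mmp14 did not keep the order. That of Mmp2 read 429 and 534 against 452 and 545, and a dimmer one of Mmp14 47.6 and 73.1 against 69.2 and 79.8. Both were highest on UAG replicate 2. The dimmest of Mmp14 read 43.2 and 62.0 against a value below 30 and 57.2. Without saline replicate 2 the log2 differences were 0.59 for Adamts12 and 1.57 for Mmp3, and the part of fat or of attached tissue in these values was not tested.

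**Figure D5:**
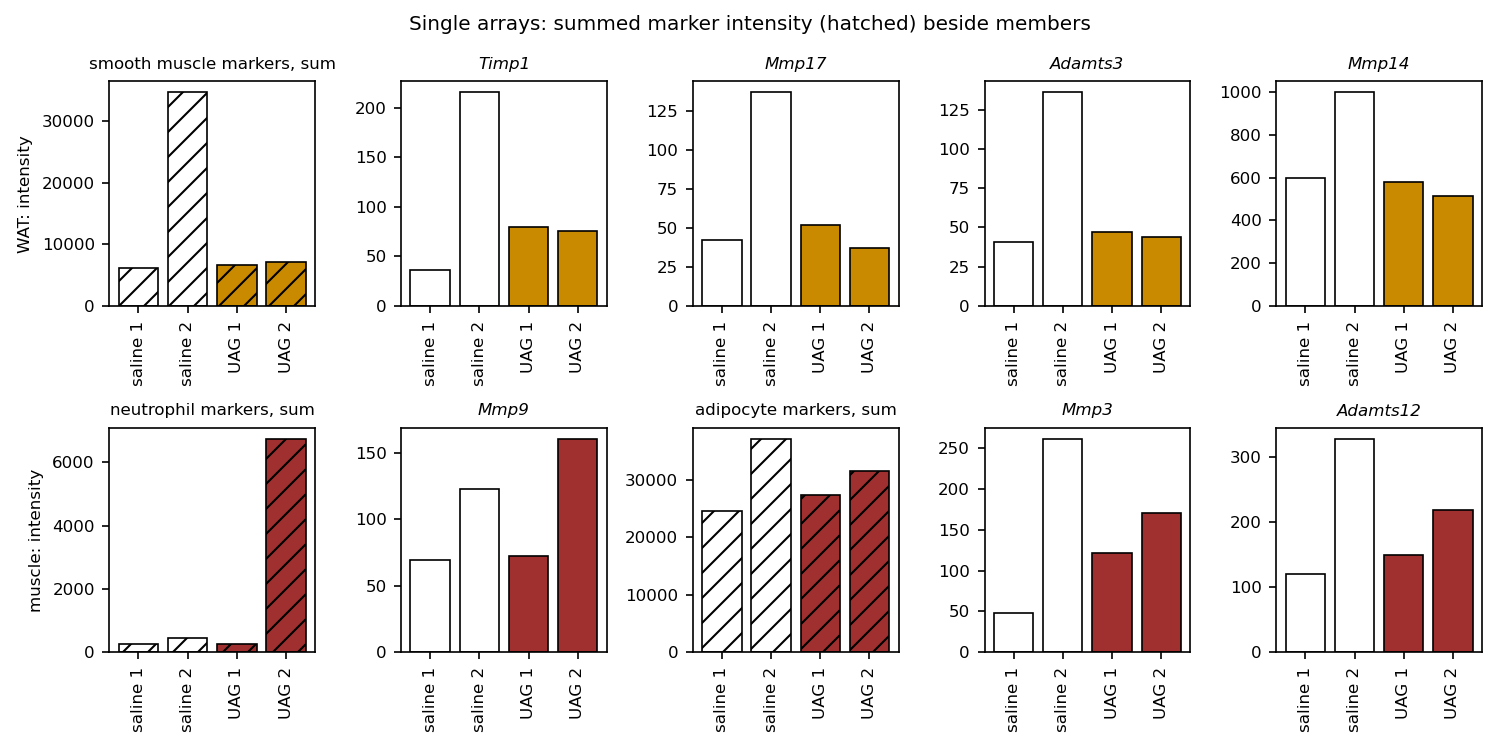
Intensity on single arrays, WAT above and muscle below, with summed markers of a cell type hatched, open bars for saline and filled bars for UAG, each panel on its own axis from 0. Timp1, Mmp17, Adamts3 and Mmp14 are highest on the WAT array with the high smooth muscle sum (34705). So are the brightest probe sets of Mmp2, Mmp9, Mmp19 and Mmp23 in WAT, which are not drawn, but not the other probe sets of Mmp9 and Mmp19. Mmp9 in muscle, by its brightest probe set but not by the other, is highest on the array with the neutrophil sum of 6749.

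The genes around the family were counted from lists of activators, cell surface regulators, relatives and substrates. limma called no member of any of these lists in any tissue, against 0% of all genes, and their medians of the log2 difference are read beside the medians of all genes, 0.029 in WAT, 0.010 in muscle and 0.0073 in liver. Counts of genes above 0 are read beside the 54.4%, 52.3% and 51.6% of all genes that were above 0 in these tissues. Of the plasminogen system and other activators, 5, 5 and 8 of the 10 genes found were tested in WAT, muscle and liver, and none passed 2-fold. Plat, which encodes tissue plasminogen activator, had the largest difference in WAT, at 439 and 820 with saline against 448 and 372 with UAG, and Pcsk5, a proprotein convertase, was next at 219 and 482 against 455 and 414, and the groups of both genes overlapped.

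Of the cell surface regulators, inhibitors and clearance receptors 11, 12 and 10 were tested, and 2 of the 11 passed 2-fold in WAT, against 2.46% of all genes. Thbs2, which encodes thrombospondin 2, a protein that binds MMP2 for its uptake by LRP1, was higher with UAG (400 and 396 against 743 and 1060, ratio 2.26), and Sdc1, the proteoglycan syndecan 1, was lower (252 and 279 against 148 and 113, ratio 0.491). Neither had overlapping groups. Reck, which encodes a membrane-anchored inhibitor of MMP9, MMP2 and MT1-MMP, read 426 and 467 against 374 and 323. The list median in WAT was -0.032.

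Among ADAMTS-like proteins, which share the thrombospondin repeats but have no protease domain, 3 of 6 tested were higher in WAT, 5 of 5 in muscle and 2 of 2 in liver. Adamtsl5 in WAT read 39.1 and 38.2 against 66.2 and 63.9, and Adamtsl4 in muscle 227 and 165 against 287 and 263. Of the ADAMTS substrates 1 of 5 was higher in WAT, and Fbn2, which encodes fibrillin 2, passed 2-fold downward from 97.3 on saline replicate 2 alone, with the other WAT arrays below 30. In muscle 4 of 4 were higher, among them Comp at 192 and 84.3 against 240 and 272.

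Of the ADAM proteases 9 were tested in WAT and muscle and 7 in liver, and 4, 6 and 3 were higher. Adam8 and Adam19 had the largest differences in WAT, at 62.1 and 84.6 against 53.9 and 42.9 and at 139 and 139 against 94.5 and 91.7, with both UAG arrays lower. Of the procollagens and other MMP substrates 7 of 13 were higher in WAT, 12 of 13 in muscle and 10 of 12 in liver, with medians of 0.031, 0.21 and 0.18. Of all genes, 54.4%, 52.3% and 51.6% were higher. Nid1, which encodes the basement membrane protein nidogen 1, read 2706 and 3010 against 5171 and 4416 in WAT (ratio 1.68), and Col1a2 in muscle 1314 and 1687 against 2099 and 2396, both with groups apart. Col1a1 in WAT read 754 and 3728 against 1299 and 1237, the high value again on saline replicate 2. Of the astacins and cathepsins 4 of 5, 3 of 5 and 4 of 6 were higher, and none passed 2-fold.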

How the data were processed

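Total RNA of 12 samples was hybridized to Affymetrix Mouse Genome arrays. The authors normalized the intensity values by quantiles, and the deposited table gives them on a log2 scale. The base is not stated, and base 2 was taken. MAS5, with no version, is named in the submitters' processing notes. The 64 control probe sets were not used. Of the other probe sets, 34945 named 1 gene, 932 several and 9160 none. 1 gene of these families is not reported here.

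The values were returned to intensity and set to at least 30. A gene was counted as 2-fold where the ratio of its arithmetic means reached 2 or fell to 0.5. limma 3.58.1 in R 4.3.3, with an intensity trend, was fitted to the log2 values of probe sets with a mean of at least 30, to the 4 arrays of a tissue for UAG and to all 12 arrays for tissues and for differences of the UAG effect, with p-values adjusted by Benjamini and Hochberg over all probe sets tested. The fit to all arrays takes the tissues as independent. Named were all Timp genes, genes of the study's PCR, and members with a group mean of at least 100 or a 2-fold ratio, and dim members where a count rests on them. The members and lists were chosen with earlier results of these data known. Counts over all genes use the brightest probe set of each gene. Same-numbered saline and UAG arrays had correlations of their deviations from the group means of -0.14 in WAT, 0.11 in muscle and -0.038 in liver, so that the numbers were not taken as pairs. Scripts were tested on simulated data. Figures were drawn with matplotlib 3.10.9. The number of arrays limits the precision, and array correlations within a tissue were 0.925 to 0.962.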

Additional observations from a re-analysis of the deposited data

How the results depend on the processing

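Of 178 alternative counts, 168 were within 1.5 times the reported count, and of 384 alternative log2 differences of named genes 345 kept their sign. The count of members past 2-fold in WAT, 3 as reported, ranged from 2 to 6 with arrays left out. In muscle (0 as reported) it ranged from 0 to 3, with 3 without saline replicate 2, and in liver (0 as reported) from 0 to 2, with 2 where no floor was set (Mmp9 and Mmp24). The limma count for WAT against muscle, 14 as reported, was 8 with saline arrays only and 9 where a 2-fold difference was also required, and that for muscle against liver, 14 as reported, was 8 with saline arrays only. The difference of the UAG effect between WAT and liver gave 1 member, Timp4, without WAT saline replicate 1 (the lone saline array is assumed to vary like the other groups, and liver stood at the floor), and ranged from 0 to 1 with arrays left out. The log2 difference of Mmp17 in WAT turned from -0.79 to 0.056 without WAT saline replicate 2 and was -1.64 without WAT saline replicate 1. The cause of these changes was not tested.

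With the replicate number as a block (replicate block), limma called 0 members for UAG in each of the 3 tissues, and the crossed pairing in WAT, added after seeing the data, also gave 0. With treatment and replicate number taken as the mouse, the tissue fits with the replicate block called 16 members for WAT against muscle, 18 for WAT against liver and 14 for muscle against liver. Members near the floor of 30 have bounds rather than levels, and a UAG difference within a tissue was called for 0 members under every alternative tried.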

Other observations

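Markers of tendon and cartilage, a tissue that lies against the muscle sampled and holds much of the substrate of the ADAMTS proteases, were above 0 for 5 of 5 tested genes in muscle, against 52.3% of all genes. The median log2 difference was 0.80, and 0.41 without saline replicate 2, an alternative chosen after seeing the data. Their summed intensity was 2546 and 1255 with saline and 3195 and 2879 with UAG, and Comp read 192 and 84.3 against 240 and 272. limma called none of them. Macrophage markers were above 0 for 6 of 6 in muscle, with sums of 2437 and 3107 against 3147 and 4132.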
